A study of Mus musculus with 6 samples.

Results

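The genes for the proteins of the cytosolic ribosome were examined in cGAS-/- neutrophils with and without lipopolysaccharide (LPS). Members were the gene symbols made of Rpl, Rps or Rplp and a number, with an optional closing letter or digit, together with Rpsa, without symbols marked as pseudogenes and without the S6 kinases. The rule found 63 of the 38739 genes of the table, 37 of the large subunit and 26 of the small subunit. GENCODE M39 lists 60 of them as protein-coding, while Rpl32l, Rpl6l and Rps12l1 are listed as pseudogenes. A further 26 annotated genes that fit the rule had no values here, so sums, shares and medians cover only part of each subunit.

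RNA sequencing was performed on 6 samples of neutrophils from the peritoneal cavity of C57B/L6 mice with a cGAS knockout, after thioglycolate injection. There were 3 samples left in culture medium (untreated 1 to 3) and 3 given LPS, a component of the bacterial outer membrane, for 2 h (LPS 1 to 3). The knockout was common to both groups, and the sample labels give an LPS dose of 500 ng/mL while the methods give a lower one. Nothing in the sources used here says whether the samples came from separate mice, so p-values measure the spread between these samples, which may be technical.

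A ribosome holds 1 copy of nearly every protein of its large and small subunit, so cells normally make these proteins in matched amounts. The small subunit reads the messenger RNA, while the large subunit joins the amino acids and carries a flexible stalk that recruits translation factors. Most of these messenger RNAs begin with a run of pyrimidines, the terminal oligopyrimidine tract, through which their translation follows nutrient and growth signals. Mature neutrophils are short-lived cells that carry little RNA, and several members have a paralogue, a duplicated relative whose protein can take the same place in the ribosome.

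The values are TPM, a unit scaled for transcript length and for the library total, and were taken to be the mean of all transcripts annotated for a gene. A level is therefore per length but also depends on how many transcripts the annotation gives a gene. The number of reads per library is unknown. Library 2 of both groups stood apart in the ribosomal protein genes. Summed over the 63 genes, the value was 16925, 7135 and 16358 TPM in untreated 1 to 3, and 12459.7, 5606 and 11056 TPM in LPS 1 to 3. Within its group, untreated 2 was lowest for 48 of the 63 genes and LPS 2 for 61 of 63. Among the 61 genes with a mean of at least 1 TPM, the median log2 difference from library 1 to library 2 was -1.11 in untreated and -1.13 in LPS cells. Over 1724 other protein-coding genes with a mean of at least 10 TPM the same medians were 0.15 and 0.27. The ribosomal protein genes were therefore low as a group in both of these libraries, on a scale on which other well-expressed genes were not.

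Of the marker genes of other cells, those of B cells moved with these sums. The 8 B-cell markers in the table, none of them at 0 throughout, summed to 1097, 282 and 1029 TPM in untreated 1 to 3 and to 807, 264 and 735 TPM in LPS 1 to 3, which puts the 6 libraries in the same order as the ribosomal protein genes do. Most of that sum was Ighm and Cd79a, which encode parts of the B-cell receptor. The 11 neutrophil markers, led by S100a8 and S100a9, summed to 10645, 27417 and 10189 TPM in untreated cells and to 19932, 52138 and 17114 TPM in LPS cells, with library 2 highest in each group. S100a8 and S100a9 made up most of each sum. Of the 11, 6 had a log2 fold change above 0 and 5 below. Csf3r (means 373 and 186 TPM), Cxcr2 (86.5 and 13.1 TPM) and Il1r2 were lower in every LPS library, and Hdc and Clec4d were higher. Mxd1 was lowest in untreated 2, at 347, 67 and 110 TPM in untreated cells. Haemoglobin and other erythroid markers were highest in replicate 3 of both groups, at 5629 and 4651 TPM against 21.5 to 572 TPM in the other libraries. The part of these other cells in the results that follow was not tested. In bulk RNA, fewer cells of a type and less RNA per cell cannot be told apart. Macrophage and monocyte markers summed to 1073, 1539 and 1127 TPM in untreated and 1002, 1109.7 and 804 TPM in LPS cells. Library 2 was highest in each group. Lyz2 made up most of this, at a mean of 1054 TPM in untreated and 623 TPM in LPS cells. Of the 11 markers, 5 had a log2 fold change above 0 and 6 below. Among the 5, C1qb had means of 2.77 and 19.8 TPM and Cd68 of 166 and 305 TPM. T and NK cell markers summed to 15.4 to 16.8 TPM in untreated and 6.43 to 14.8 TPM in LPS cells. Cgas itself was at 0.203, 0.307 and 0.18 TPM in untreated and 0.184, 0.0713 and 0.0286 TPM in LPS cells.

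**Figure D1:**
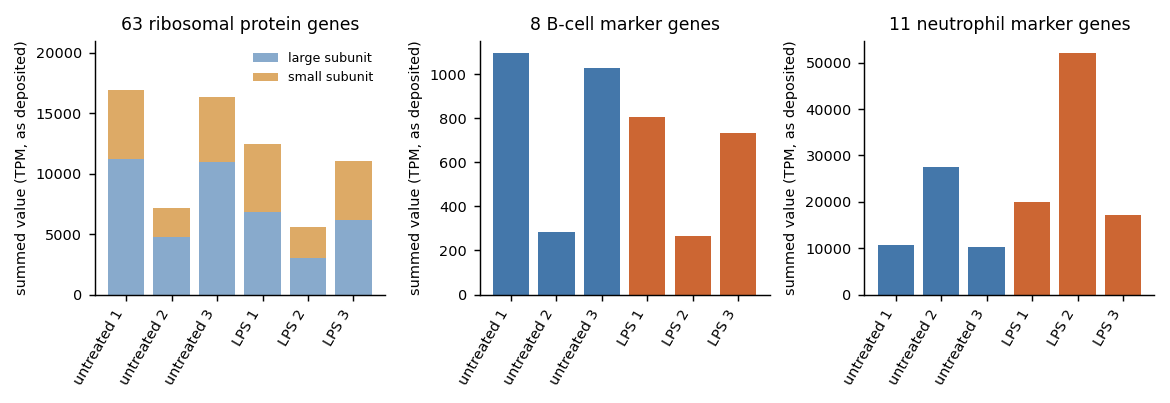
Summed TPM per library (bars) for the 63 ribosomal protein genes, split by subunit, for 8 B-cell marker genes and for 11 neutrophil marker genes. Untreated 2 (7135 TPM) and LPS 2 (5606 TPM) are lowest in ribosomal protein genes, lowest in B-cell markers and highest in neutrophil markers within their groups.

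The untreated libraries also differed more among themselves. After each library was divided by its own geometric mean over the 61 genes, the median coefficient of variation was 39.8% in untreated and 9.68% in LPS cells (n = 3 each). Without that division it was 49.4% and 38.8%. The Pearson correlation of log2 values over the 61 genes was between 0.849 and 0.927 for pairs of untreated libraries and between 0.971 and 0.992 for pairs of LPS libraries. These are correlations across genes that share a library, and genes are not independent replicates. The same was seen in the 1724 other protein-coding genes, at 0.62 to 0.707 and 0.894 to 0.98. From 15419 to 15800 genes were above 0 in the untreated libraries and from 16148 to 19191 in the LPS libraries.

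LPS was compared with untreated cells by limma on log2(TPM + 1) over 23049 genes. Of the 63 ribosomal protein genes, 3 were higher with LPS by the limits of the study's methods (p under 0.01 before adjustment, log2 fold change beyond 2), against 1.69% of all genes tested, and 1 was lower, against 1.31%. These were Rps15a, Rpl12 and Rps27l on the higher side and Rpl31 on the lower side. At a Benjamini-Hochberg adjusted p under 0.05, 2 genes were higher (0.894% of all genes) and none was lower (0.946%), and at an unadjusted p under 0.05 the counts were 6 and 8, against 10.3% and 6.66% of all genes. Of the 1779 protein-coding genes with a mean of at least 10 TPM, 160 (8.99%) were higher and 27 (1.52%) lower by the study's limits. At an unadjusted p under 0.05, 461 of these 1779 were higher and 185 lower.

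In 6 ribosomal protein genes (9.52%) every LPS library lay above every untreated library, and in 8 (12.7%) every LPS library lay below. The shares were 13.1% and 9.75% over all genes tested. Over the 1779 protein-coding genes with a mean of at least 10 TPM they were 30% and 11.7%. The genes on the higher side were Rpl12, Rpl22l1, Rps15a, Rps27l, Rps4l and Rps9. Those on the lower side were Rpl23a, Rpl27, Rpl29, Rpl31, Rpl6l, Rpl7a, Rpl9 and Rps27. The log2 fold changes ran from -2.30 for Rpl31 to 3.09 for Rps15a. The remaining 49 genes overlapped between the groups.

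The median log2 fold change was -0.22 over the 37 large subunit genes, 16 above 0 and 21 below, and 0.39 over the 26 small subunit genes, 18 above 0 and 8 below. Over all 23049 genes it was 0.01, and over the 1779 well-expressed protein-coding genes 0.57. A library's median deviation from its group mean had an SD of 0.56 (large) and 0.65 (small) on the log2 scale over the 6 libraries, more than either median's distance from 0. The sign of both medians depended on the setting. That of the small subunit was 0.03 after the medians of protein-coding genes were set equal, a step that moved the median of all genes to -0.34, and -0.10 after division by the protein-coding sum, while that of the large subunit was -0.58 and -0.61. Without untreated 2 the medians were -0.59 and -0.05, without untreated 1 they were 0.03 and 0.51, without LPS 2 they were 0.10 and 0.66, and without library 2 of both groups -0.18 and 0.27. With the protein-coding medians set equal, 3 genes were higher and 2 lower by the study's limits, against 1.13% and 2.25% of all genes. With division by the protein-coding sum they numbered 2 and 2, against 0.959% and 2.24%. At an adjusted p under 0.05 the former scaling gave 3 higher and 9 lower, where 2.15% and 19% of all genes were called, and the latter 0 and 0, where 0.521% and 1.65% were.

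**Figure D2:**
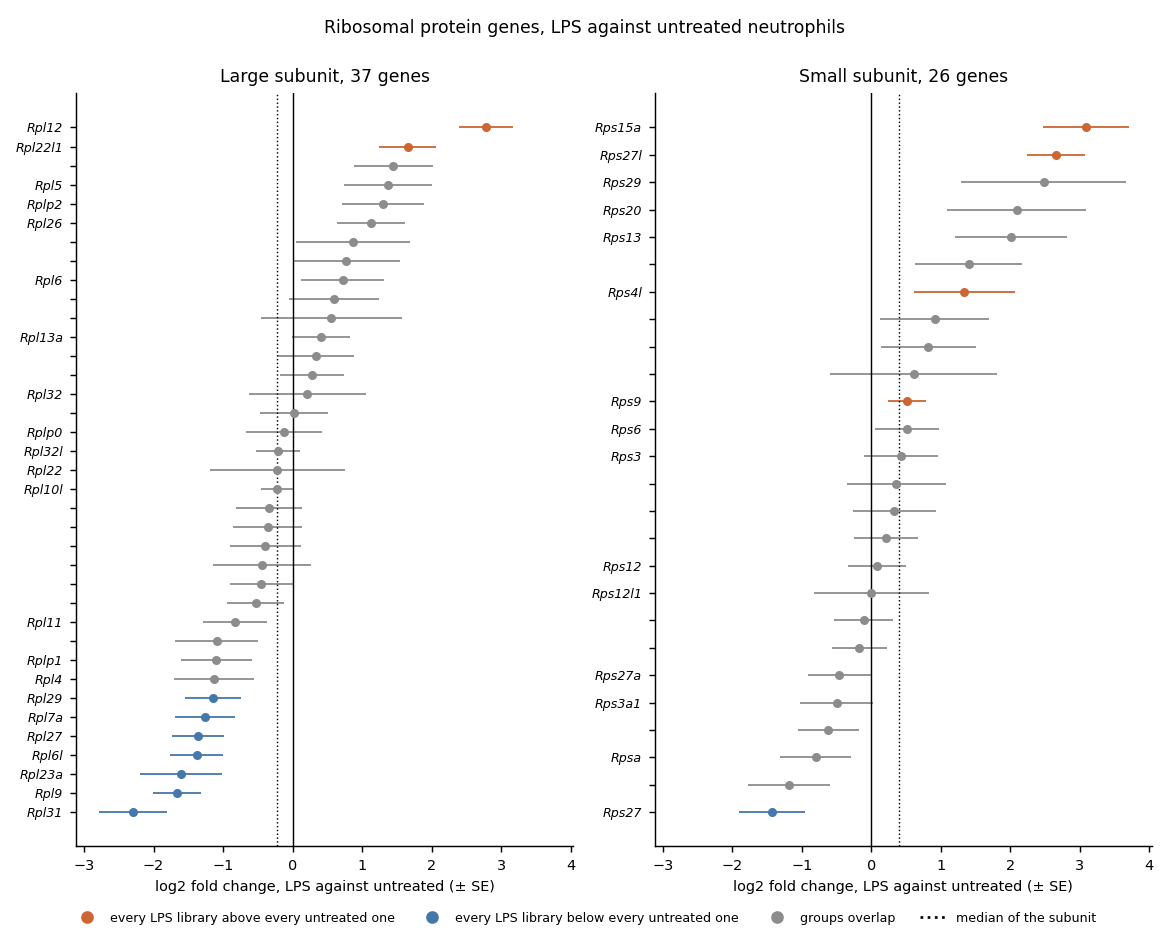
Log2 fold change of the ribosomal protein genes, with names for those described in the text, on log2(TPM + 1), LPS against untreated, as points with bars of 1 SE from limma (n = 3 each), for the large subunit on the left and the small subunit on the right. Rps15a (3.09), Rpl12 (2.78) and Rps27l (2.66) lie highest and Rpl31 (-2.30) lowest, and the dotted subunit medians are -0.22 and 0.39.

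Within a library, the split between the subunits does not depend on scaling. The small subunit genes made up 34%, 33% and 32.8% of the summed value in untreated 1 to 3 and 45.5%, 46% and 44.6% in LPS 1 to 3. In that share library 2 was no exception. Much of the summed value came from Rplp1 alone, a stalk protein, at 20.9% to 28.1% in untreated and 14.5% to 16.5% in LPS cells. Without Rplp1 the small subunit share was 43% to 45.6% and 53.2% to 54.3%. Without the 6 genes of highest mean, it was 34.9% to 40.7% and 44.6% to 48.3%. With near-identical pseudogenes added to their genes, it was 33%, 26.5% and 34.3% in untreated and 42.3%, 42.4% and 42% in LPS cells. Untreated 2 thus stood below the other untreated libraries in this share. The groups did not overlap in any of these 4 shares. For the coding members the share of protein-coding values was 10.4%, 3.66% and 10.7% in untreated and 5.62%, 1.92% and 5.1% in LPS cells. Library 2 of each group was lowest, and untreated 2 lay among the LPS libraries. As a share of all values, all members were at 2.37%, 1.08% and 2.71% in untreated and 3.06%, 1.2% and 2.73% in LPS cells. Here the groups overlapped. The sum of all values was 713384, 659167 and 603599 TPM in untreated and 407491, 465904 and 404675 TPM in LPS cells. The protein-coding sum was 154208, 190947 and 145584 TPM and then 206155, 279485 and 207089.9 TPM. The former was lower and the latter higher in every LPS library.

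Rps27l and Rps27 are zinc-binding small subunit proteins of 1 family, and Rps27l is known as a target gene of p53. Rps27 lies at chr3:90119819-90120977 on the minus strand and Rps27l at chr9:66853340-66856808 on the plus strand (GRCm39, whole genes). Their coding sequences from GENCODE M39 are shown because they set how well reads tell the 2 genes apart. Both are 252 bases long, and the 60 bases that differ, in capitals, are spread along the whole length, which leaves 76.2% identity.
Rps27: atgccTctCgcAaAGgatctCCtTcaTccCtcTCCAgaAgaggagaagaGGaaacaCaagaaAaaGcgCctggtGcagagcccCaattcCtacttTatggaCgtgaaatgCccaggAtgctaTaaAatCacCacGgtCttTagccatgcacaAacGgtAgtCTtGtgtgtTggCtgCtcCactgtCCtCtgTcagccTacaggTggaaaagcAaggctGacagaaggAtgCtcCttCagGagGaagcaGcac
Rps27l: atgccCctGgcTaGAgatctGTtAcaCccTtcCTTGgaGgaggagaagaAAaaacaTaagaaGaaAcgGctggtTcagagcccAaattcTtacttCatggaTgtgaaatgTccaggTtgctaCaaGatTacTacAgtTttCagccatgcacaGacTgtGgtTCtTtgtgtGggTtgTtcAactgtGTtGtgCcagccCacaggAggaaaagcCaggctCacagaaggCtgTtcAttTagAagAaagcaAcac

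Rps27l was at 1.86, 1.29 and 0.785 TPM in untreated 1 to 3 and at 17.8, 7.82 and 17 TPM in LPS 1 to 3. Every LPS library was above every untreated one, LPS 2 being the lowest of its group. The means were 1.31 ± 0.537 and 14.2 ± 5.54 TPM (SD, n = 3 each), and the log2 fold change was 2.66 ± 0.42 (SE, limma adjusted p = 0.043). No transcript near-identical to its coding sequence was found in GENCODE M39, so that this gene is free of the pseudogenes described below. With 1 library left out, or library 2 of both groups, the adjusted p was between 0.063 and 0.19, and with the replicate number as a block it was 0.12.

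Rps27 was at 398, 186 and 624 TPM in untreated cells and at 137, 115 and 147 TPM in LPS cells. Here every LPS library was below every untreated one, and the log2 fold change was -1.43 ± 0.48 (SE, limma adjusted p = 0.21). Rps27rt, a coding gene outside the rule, is 100% identical to Rps27 over the coding sequence, and reads cannot tell the pair apart there. It was at 451, 273 and 176 TPM in untreated and 984, 578 and 957 TPM in LPS cells, so that it was higher in every LPS library. The 2 genes together were at 849, 460 and 800 TPM and then 1121, 693 and 1104 TPM, with overlap. Summed with those near-identical copies that have values here, Rps27 had a log2 fold change of 0.49 ± 0.38 (SE, limma adjusted p = 0.55). The direction of Rps27 alone is therefore uncertain. The ratio of Rps27l to Rps27 within a library was 0.467%, 0.693% and 0.126% in untreated and 13%, 6.81% and 11.5% in LPS cells. The means were 0.429% ± 0.286 and 10.4% ± 3.22 (SD, n = 3 each), without overlap. A two-sided exact permutation test gave p = 0.1, the smallest that 3 against 3 allows, and 0.13 adjusted over the 8 pairs compared. Against the sum of Rps27 and Rps27rt the ratio was 0.219%, 0.281% and 0.0981% in untreated and 1.58%, 1.13% and 1.54% in LPS cells, also without overlap.

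The other pair of coding paralogues is Rpl22 and Rpl22l1, RNA-binding proteins of the large subunit whose coding sequences are 73.3% identical. Rpl22l1 was at 0.92, 0.739 and 1.77 TPM in untreated and 6.65, 3.21 and 7.98 TPM in LPS cells, again without overlap and with LPS 2 lowest of its group. Its log2 fold change was 1.66 ± 0.41 (SE, limma adjusted p = 0.11). Rpl22 was at 194, 22.5 and 25 TPM and at 71.8, 17.7 and 53.9 TPM, a difference smaller than the spread within the untreated group, where untreated 1 stood far above the others. The ratio of Rpl22l1 to Rpl22 was 0.475%, 3.28% and 7.07% against 9.26%, 18.1% and 14.8% (exact permutation p = 0.1, adjusted p = 0.13).

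The other relatives were low or could not be separated. Rps4l, an autosomal relative of the X-linked Rps4x, was at 4.8, 0 and 3.73 TPM in untreated and at 4.98, 9.37 and 6.1 TPM in LPS cells, so that LPS 1 lay just above untreated 1. Its log2 fold change was 1.34 ± 0.73 (SE, limma adjusted p = 0.41). Rpl10l, a retrocopy of Rpl10 known from the testis, was above 0 in untreated 2 and LPS 1 alone, at 0.772 and 0.0957 TPM. Rpl6l was at 1.56, 2.99 and 2.71 TPM in untreated and 0.83, 0 and 0.172 TPM in LPS cells, without overlap, although it shares 98.7% of its bases with Rpl6. Rps12l1 and Rps12 are identical over 396 aligned coding bases, and reads cannot tell them apart there. The annotated pseudogene Rps12l1 held 820, 147 and 830 TPM against 864, 239 and 487 TPM, while Rps12 itself held 70.3, 42.7 and 93 TPM against 83.3, 46.4 and 85.4 TPM, and neither differed between the groups beyond the spread. Rpl32l did not exceed 1.04 TPM in any library.

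**Figure D3:**
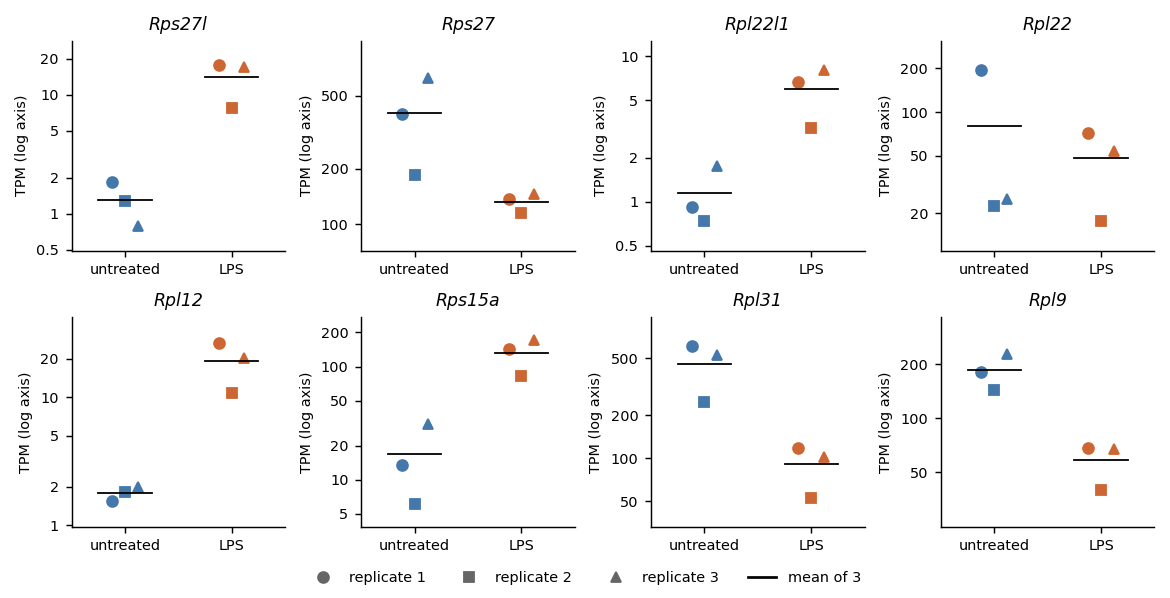
TPM on log axes for 8 ribosomal protein genes in each library, with a symbol per replicate number and a line at the mean of 3. Rps27l, Rpl22l1, Rpl12 and Rps15a are higher in all 3 LPS libraries, Rps27 (without its identical copy Rps27rt), Rpl31 and Rpl9 are lower in all 3, and the groups overlap for Rpl22.

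The stalk of the large subunit is built from Rplp0, which anchors pairs of Rplp1 and Rplp2. Rplp1 had the highest untreated mean of all members, at 3539, 1744 and 4593 TPM, and was at 1808, 864 and 1828 TPM in LPS cells. Its groups overlapped, since LPS 1 and 3 were above untreated 2, and its log2 fold change was -1.10 ± 0.51 (SE, limma adjusted p = 0.33). Rplp2 was at 111, 30.3 and 55.9 TPM in untreated and 208, 81.7 and 171 TPM in LPS cells, with a log2 fold change of 1.30 ± 0.59 and an adjusted p of 0.33. Rplp0 was at 255, 81.8 and 207 TPM and at 194, 91.6 and 190 TPM, with overlap. Within a library the stalk genes separated the groups: Rplp2 was 3.13%, 1.74% and 1.22% of Rplp1 in untreated and 11.5%, 9.45% and 9.34% in LPS cells. Rplp0 was 7.21%, 4.69% and 4.5% of Rplp1 and then 10.7%, 10.6% and 10.4%. Both ratios had an exact permutation p of 0.1, 0.13 after adjustment over the 8 pairs, and in neither did library 2 stand apart.

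Rpl12, at the base of the stalk, rose from 1.56, 1.82 and 1.98 TPM in untreated to 26.5, 10.8 and 20.4 TPM in LPS cells. The means were 1.78 ± 0.212 and 19.3 ± 7.93 TPM (SD, n = 3 each), and the log2 fold change was 2.78 ± 0.39 (SE, limma adjusted p = 0.035). Its near-identical pseudogenes held far more, mainly Gm10275 (100% identity), at 245, 170 and 160 TPM in untreated and 310, 92 and 243 TPM in LPS cells. Rpl12 made up 0.605% to 1.17% of itself and its pseudogenes in untreated and 7.37% to 8.76% in LPS cells. Summed with them its log2 fold change was 0.21 ± 0.46 (SE, limma adjusted p = 0.81). The rise of Rpl12 was not seen in this sum, and with 1 library left out, or library 2 of both groups, the adjusted p of Rpl12 alone was between 0.058 and 0.17. With the replicate number as a block it was 0.11.

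Rpl5 and Rpl11 bind the 5S ribosomal RNA and, outside the ribosome, the p53 regulator Mdm2. Rpl5 was at 9.37, 1.74 and 3.49 TPM in untreated and 18.8, 6.25 and 14.2 TPM in LPS cells, and Rpl11 at 151, 79.3 and 143 TPM and then 92.8, 39.2 and 81.6 TPM. Their log2 fold changes were 1.37 ± 0.63 and -0.83 ± 0.46 (SE, limma adjusted p = 0.33 and 0.41). The ratio of Rpl5 to Rpl11 was 6.21%, 2.19% and 2.44% against 20.3%, 16% and 17.5%, without overlap (exact permutation p = 0.1, adjusted p = 0.13). Rpl5 made up only 1.86% to 5.37% of itself and its pseudogenes in the 6 libraries, so this ratio also rests on how reads were divided.

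**Figure D4:**
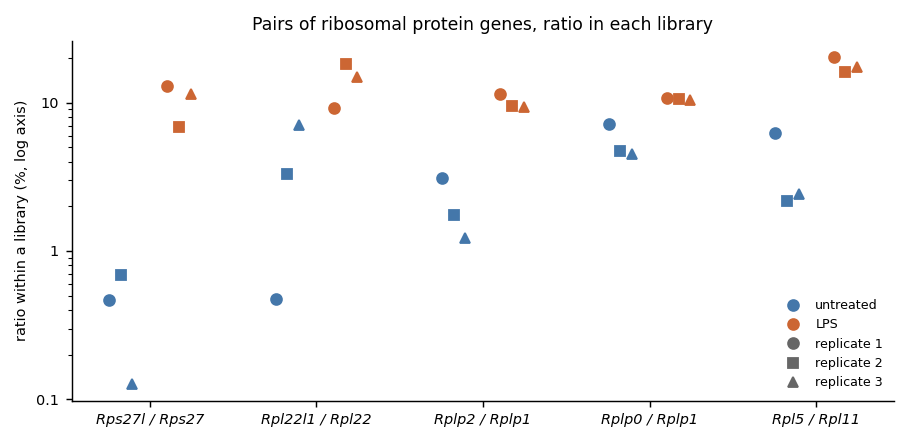
Ratio of one ribosomal protein gene to another within each library, in percent on a log axis, with colours for the groups and symbols for the replicate numbers. The LPS libraries lie above the untreated ones for these 5 of the 8 pairs compared. The range is 0.126% to 0.693% against 6.81% to 13% for Rps27l to Rps27 without Rps27rt. Of the pairs not drawn, Rpl6l to Rpl6 lay below in every LPS library (mean 9.87% in untreated, 0.445% in LPS cells). The groups overlapped for Rpl32l to Rpl32 and for Rps12l1 to Rps12.

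On the lower side, Rpl31, near the exit of the peptide tunnel, was at 606, 246 and 523 TPM in untreated and 117, 53.1 and 102 TPM in LPS cells. The highest LPS library was thus below the lowest untreated one, and the log2 fold change was -2.30 ± 0.49 (SE, limma adjusted p = 0.08). Rpl31 made up 83.8% to 99.1% of itself and its pseudogenes, and summed with them the log2 fold change was -2.20. Rpl9, near the base of the stalk, was at 181, 144 and 229 TPM and then 68.2, 39.6 and 67 TPM, with a log2 fold change of -1.66 ± 0.35 (SE, limma adjusted p = 0.079). Rpl23a, another protein at the tunnel exit, was at 1512, 445 and 1295 TPM and then 419, 184 and 392 TPM, with a log2 fold change of -1.61 ± 0.59 and an adjusted p of 0.24. Rpl27 was at 77.6, 81.4 and 71.2 TPM and then 36.3, 17.9 and 38.1 TPM, with a log2 fold change of -1.36 ± 0.37 and an adjusted p of 0.13. All 4 of these genes were below the untreated libraries in every LPS library. Rpl27 made up only 4.81% to 11.5% of itself and its pseudogenes, and summed with them its log2 fold change was -1.76. Rpl4, whose loop lines the tunnel, overlapped at 607, 207 and 516 TPM against 270, 104 and 219 TPM (log2 fold change -1.13 ± 0.57, limma adjusted p = 0.38).

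Among small subunit genes, Rps15a, a protein of the body of the subunit, had the highest log2 fold change, 3.09 ± 0.62 (SE, limma adjusted p = 0.07). It was at 13.5, 6.16 and 31 TPM in untreated and 142, 82.6 and 171 TPM in LPS cells, without overlap. Its pseudogene Rps15a-ps7 was at 252, 0 and 50.9 TPM in untreated and 2.9, 0 and 0 TPM in LPS cells. In untreated 1 the pseudogene thus held more than the gene, and in untreated 2 both were low. Summed with its pseudogenes, Rps15a had a log2 fold change of 1.16 ± 1.22 (SE, limma adjusted p = 0.62).

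Rps29, Rps20 and Rps13, at the head and the platform of the small subunit, had log2 fold changes of 2.48 ± 1.19, 2.09 ± 1.00 and 2.01 ± 0.81 (SE, limma adjusted p = 0.35, 0.35 and 0.28). Rps29 was at 126, 10.8 and 315 TPM in untreated and 514, 295 and 543 TPM in LPS cells, while its pseudogene Gm14303 (100% identity) was at 1193, 14.5 and 114 TPM in untreated cells and listed at 0 in all 3 LPS libraries. Rps20 was at 69.6, 3.63 and 26.8 TPM against 110, 54.5 and 112 TPM, and its pseudogene Gm4332 at 338, 12.6 and 457 TPM against 210, 101 and 244 TPM. Rps13 was at 42.6, 5.03 and 7.33 TPM against 68.7, 32 and 61.8 TPM. The groups overlapped for all 3 genes, and summed with pseudogenes their log2 fold changes were 0.83, 0.80 and 0.11. In untreated 1 most of the value of Rps15a, Rps29 and Rps20 stood under a pseudogene. For Rps20 this held in every library, the gene being 5.54% to 35.2% of itself and its pseudogenes. It also held for Rps13 in untreated 2 and 3 (gene 6% and 8.1%), Rps29 in untreated 2 (42.7%) and Rps15a in untreated 3 (37.8%).

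**Figure D5:**
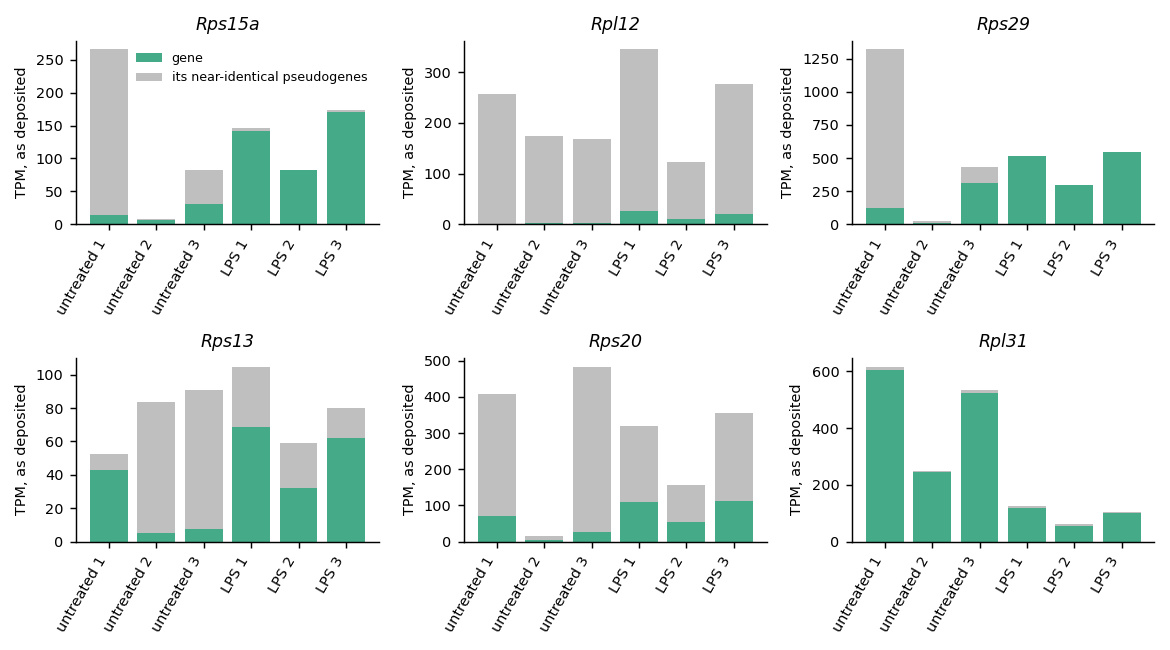
TPM of 6 ribosomal protein genes (green) with the summed TPM of their near-identical pseudogenes stacked on top (grey), in each library. In untreated 1 the pseudogenes hold most of the value of Rps15a, Rps29 and Rps20, and for Rps20 they do so in every library. Gm14303 and the other copies of Rps29 are at 0 with LPS, and Rpl31 has little value in its copies.

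Copies of this kind were common. Of the 60 coding members, 56 had at least 1 pseudogene in GENCODE M39 with at least 95% identity over at least 50% of the coding sequence, with a median of 4.5 and a maximum of 57 for Rpl21. In the table, 279 such pseudogenes summed to 7602, 3049.9 and 5517 TPM in untreated and 4644, 2185 and 4267 TPM in LPS cells, beside 16103, 6985 and 15525 TPM and 11595, 5367 and 10568 TPM for the coding members. The pseudogene sums were lowest in library 2 as well. Values of a gene with such copies are uncertain, since the division of reads among identical sequences is an estimate. Of the coding genes described above, Rps27l and Rps4l had no such copy. Several others had little value in pseudogenes, among them Rpl22l1, Rpl9, Rpl23a and Rps27, but Rps27 has the coding copy Rps27rt.

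The members with known roles in signalling overlapped between the groups. Rps6, the protein phosphorylated by S6 kinases, was at 81.7, 112 and 148 TPM in untreated and 233, 88.5 and 189 TPM in LPS cells (log2 fold change 0.51 ± 0.46, limma adjusted p = 0.57). Rpl26, which can bind the p53 messenger RNA, was at 96.3, 47.8 and 41.2 TPM and then 186, 77.4 and 142 TPM (1.13 ± 0.49 on the log2 scale, limma adjusted p = 0.32). Rpl13a, known to leave the ribosome for translational control in interferon-treated myeloid cells, was at 51, 37.6 and 45.5 TPM and then 84.3, 33.5 and 73.2 TPM. Rps3, at the entry of the messenger RNA, was at 171, 53.5 and 84.5 TPM and then 151, 79.5 and 158 TPM. Rpsa, also known as a laminin receptor, was at 145, 117 and 260 TPM and then 134, 51.5 and 120 TPM, and Rps27a, made as a fusion with ubiquitin, at 165, 247 and 96.1 TPM and then 145, 80.3 and 129 TPM. Rps3a1 had one of the highest levels, at 1392, 491 and 1121 TPM and then 899, 389 and 773 TPM. The groups overlapped in all 7 genes, with limma adjusted p between 0.32 and 0.67.

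The start sites of the messenger RNAs were read from RefSeq windows (GRCm38.p6), which matched 46 of the 63 members by symbol. A run of the oligopyrimidine kind was defined as a C within 5 bases of the annotated start, on the strand of the gene, followed by at least 4 C or T. It was present in 22 of the 46 members (47.8%) against 21.2% of the 27025 genes with a window. The following windows of 20 bases before and 20 from the start on show it in capitals for paralogues and for members with large or known responses, chosen among the windows that held a run.
Rps27: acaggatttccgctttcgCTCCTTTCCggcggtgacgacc
Rps27l: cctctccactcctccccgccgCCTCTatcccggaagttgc
Rpl22l1: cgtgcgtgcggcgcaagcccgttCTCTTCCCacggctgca
Rps15a: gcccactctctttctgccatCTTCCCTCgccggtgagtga
Rpl12: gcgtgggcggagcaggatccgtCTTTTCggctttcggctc
Rpl31: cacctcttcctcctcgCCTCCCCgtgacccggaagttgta
Rplp2: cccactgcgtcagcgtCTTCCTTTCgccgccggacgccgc
Rps6: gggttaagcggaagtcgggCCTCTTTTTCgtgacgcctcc

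In the order printed, the windows lie at chr3:90213629-90213668 (minus strand), chr9:66946066-66946105 (plus), chr3:28805488-28805527 (plus), chr7:118116128-118116167 (minus), chr2:32961692-32961731 (plus), chr1:39367831-39367870 (plus), chr7:141447631-141447670 (plus) and chr4:86857348-86857387 (minus). The run of Rps27l has 5 pyrimidines and that of Rps27 has 9. A second annotated start of Rps27l held no such run. Genes on the higher side (Rps27l, Rps15a, Rpl12) and on the lower side (Rps27, Rpl31) both held a run, while Rpl9, Rpl27, Rpl5 and both windows of Rpl22 held none. The median log2 fold change was 0.46 over the 22 members with a run, 15 above 0 and 7 below, and -0.05 over the 24 without one, 12 on each side. A match is a description of the annotated start, not a measured start in these cells.

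Lists of genes around the ribosome were followed beside the members. Of the other ribosome components, Rack1, a scaffold on the small subunit, and Rpl36al, a relative of a large subunit protein, overlapped between the groups, with log2 fold changes of 0.84 and 1.63. Of 20 other messenger RNAs known for an oligopyrimidine start, such as elongation and initiation factors, none passed the study's limits and none an adjusted p under 0.05, while 6 were higher and 2 lower at an unadjusted p under 0.05, where 10.3% and 6.66% of all genes were. Of the 1779 protein-coding genes with a mean of at least 10 TPM, 461 were higher and 185 lower at that level. The median log2 fold change was 1.11 over the 20 messenger RNAs and 0.57 over those 1779 genes. Eif3m, an initiation factor subunit, was at 2.93, 1.33 and 2.51 TPM in untreated and 15.6, 6.25 and 15.2 TPM in LPS cells (limma adjusted p = 0.091). Eef1a1, the elongation factor that delivers transfer RNA, was at 832, 540 and 577 TPM and then 401, 284 and 390 TPM (limma adjusted p = 0.24). Both were without overlap and in opposite directions, and the same held for Vim, which encodes the filament protein vimentin, at 142, 238 and 97.5 TPM and then 29.8, 72.8 and 22.6 TPM (limma adjusted p = 0.14).

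Of 29 genes that control this class of messenger RNA or the mTOR pathway, 1 rose, against 0.894% of all genes. At an unadjusted p under 0.05, 9 were higher and 1 lower, against 10.3% and 6.66%. Of the 12754 protein-coding genes tested, 1744 were higher and 669 lower at that level. Of the 1779 protein-coding genes with a mean of at least 10 TPM, 461 and 185 were. Rraga, a GTPase that brings mTOR complex 1 to the lysosome, went from 2.19, 1.09 and 4.48 TPM to 25.5, 25.1 and 28.1 TPM, a log2 fold change of 3.04 ± 0.42 (SE, limma adjusted p = 0.033, and 0.036 to 0.16 with 1 library or library 2 of both groups left out, and 0.098 with the replicate number as a block). Ddit4, an inhibitor of mTOR complex 1, was at 30.9, 1.19 and 2.61 TPM and then 65.9, 68.6 and 47.5 TPM (3.27 ± 1.00 on the log2 scale, limma adjusted p = 0.17), with untreated 1 well above the other untreated libraries. Castor2, which acts upstream of mTOR complex 1, was at 2.2, 0.823 and 0.997 TPM and then 0.354, 0.137 and 0.356 TPM. Its groups did not overlap (log2 fold change -0.83 ± 0.33, limma adjusted p = 0.28). Tsc1, part of the complex that restrains mTOR complex 1, overlapped at 1.36, 3.42 and 1.39 TPM against 1, 1.38 and 1.09 TPM. None of 25 genes of ribosome quality control and nucleolar stress passed either call, while 6 were higher and 1 lower at an unadjusted p under 0.05, against the same 10.3% and 6.66%. Trp53, which encodes p53, was at 4.96, 2.11 and 1.94 TPM and then 13.6, 5.82 and 12.5 TPM, without overlap (log2 fold change 1.54 ± 0.47, limma adjusted p = 0.16). G3bp1, a stress granule protein, was at 14.4, 0.647 and 10.3 TPM and then 35.6, 19.4 and 34.5 TPM (limma adjusted p = 0.29), and Edf1, a factor at collided ribosomes, at 49.4, 62.2 and 49 TPM and then 34.4, 29.6 and 35.1 TPM (limma adjusted p = 0.27). Both were without overlap, the former upward and the latter downward.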

How the data were processed

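The deposited table gave 1 value per gene and sample, and the authors made it from paired-end reads with fastp, STAR and kallisto, as the submitters' processing notes and the methods state, with GRCm39 as the genome in the methods. The notes also name mm10, and the annotation release is not given in the sources used here. The table is called one of normalized counts, but its values were taken as TPM averaged by the authors over a gene's transcripts. In the third untreated column, 98.1% of 1046 values of genes with 1 transcript had at most 6 significant digits, against 18.2% of 1299 values of genes with 10 or more. Members lie among rows written with fewer digits, so this could not be checked on them, and TPM keeps no depth, so tests on counts were not run. The sources also disagree on the sequencer.

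Symbols were matched to GENCODE M39 (35599 by name, 983 by identifier), and 382 rows had no match. The 23049 genes with a value above 0 in any sample entered a two-sided test in limma 3.58.1 (R 4.3.3, eBayes with trend, no covariate) on log2(TPM + 1), with all 6 samples and Benjamini-Hochberg adjustment over all genes. Fold changes on this scale understate those of low genes. The fit was tested on simulated data. Pseudogene copies were found with blastn 2.17.0, and pairs of genes were compared with exact permutation tests of the ratio of their values. Genes named are the members past a limit, the 6 with the lowest and highest fold change, the 6 with the highest untreated mean, members listed for a known role, paralogues with their partners, and in each other list those called and the 2 at either end. Rps9, Rpl29 and Rpl7a were named because of their values. The members and lists were chosen with earlier results of these data known. Groups came from the sample titles. The correlation of deviations from the group means between samples of the same number was 0.0935, 0.199 and 0.0835. Single values of a few genes are not reported here.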

Additional observations from a re-analysis of the deposited data

How the results depend on the processing

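The counts of ribosomal protein genes changed with several settings. Genes higher by the study's limits numbered 1 with a pseudocount of 5, where 0.56% of all genes were. With each gene summed with its near-identical pseudogenes, or with near-identical genes of any type, they numbered 1 (1.68% in either). The main fit had 3 (1.69%). Genes lower by these limits numbered 2 with protein-coding medians set equal, alone (2.25% of all genes) or with a block (2.24%). They numbered 2 after division by the protein-coding sum (2.24%), against 1 in the main fit (1.31%). With a library left out the number was between 0 and 2 (0 without untreated 1, untreated 3 or LPS 2). In those fits 1.19% to 1.74% of all genes were called lower. At an adjusted p under 0.05, 2 genes were higher (0.894% of all genes). That count was 1 with a pseudocount of 5 (0.816%), with genes at 0 kept (0.532%) and with each of the 3 sums over copies (0.889%). It was 0 after division by the protein-coding sum (0.521%) or by the geometric mean of the coding members (0.039%). It was also 0 in all fits that left out a library, library 2 of both groups together included. In those fits 0.00447% to 0.959% of all genes were higher. Lower genes at that level numbered 2 with a mean of at least 1 (5.14% of all genes) and 9 with protein-coding medians set equal (19%). They numbered 1 without a trend (2.65%), against 0 in the main fit (0.946%).

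Over all genes, 2 of the correlations between samples of the same number, 0.0935 and 0.0835, were under 0.1, so the numbers were not taken to pair the samples. Over the ribosomal protein genes the correlations were 0.179, 0.172 and 0.24. A fit with a replicate block left 0 of them higher at an adjusted p under 0.05 (0.00434% of all genes). By the limits it left 3 higher and 1 lower, against 1.68% and 1.31% of all genes. With the block and protein-coding medians set equal, 14 were lower, where 27.6% of all genes were. Each sample correlated best with its own number, which is a hint from the data only.

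Directions of small differences turned. With protein-coding medians set equal, with or without the block, log2 fold changes were -0.15 for Rpl32, -0.28 for Rps12 and -0.36 for Rps12l1. After division by the protein-coding sum they were -0.28, -0.40 and -0.49 for these, -0.07 for Rpl13a and -0.06 for Rps3. Others were 0.25 for Rplp0 with quantile normalization, 0.16 for Rps27a with either sum over pseudogenes, 0.49 for Rps27 and 0.14 for Rps27a when summed with near-identical genes of any type, -0.001 for Rps12l1 with a pseudocount of 5, and -0.12 for Rps12 and -0.20 for Rps12l1 after division by the geometric mean of the coding members. With libraries left out, values ran from -0.001 to 1.55 for Rack1, -0.37 to 0.07 for Rpl10l, -0.76 to 0.77 for Rpl22, -0.68 to 0.74 for Rpl32, -0.38 to 0.21 for Rpl32l, -0.61 to 0.24 for Rplp0, -0.22 to 0.36 for Rps12, -0.83 to 0.48 for Rps12l1 and -0.81 to 0.12 for Rps27a. The cause was not tested. Rps27l, Rps15a, Rpl31, Rpl9 and Rpl12 kept their direction in all 22 settings, with Rps27l between 1.56 and 3.32 and Rpl12 between 0.21 and 3.27. The sums over near-identical pseudogenes and over near-identical genes of any type, the fit on protein-coding genes alone, the block with equal medians, the geometric mean of the members and leaving out library 2 of both groups were chosen after the data were seen. Depth is unknown, so precision rests on 3 libraries a group.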
